A study of Mus musculus with 3 samples.

Results

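Apln, Stc1 and Cdh13 are 3 of the 125 targets that were seen in a targeted single-cell RNA sequencing panel of mouse bone marrow (BM). They were chosen by symbol and found in every library. The study compared fetal with adult marrow of wild-type C57/B6 mice, and each group has 1 library. E18.5 EC, here called fetal EC, holds sorted endothelial cells (ECs) of E18.5 embryos. E18.5 BM cells, here fetal BM, holds marrow cells of such embryos after mature haematopoietic cells had been depleted with lineage antibodies on magnetic beads. Adult BM cells, here adult BM, was depleted in the same manner from adults of an age that the labels do not give, and whether further depletion described for other adult libraries was used is not stated. Endomucin beside CD31 defines the EC sort in the series text, and CD31 alone in the methods. Several animals were pooled for each library, so no comparison could be tested across samples. All intervals are 95% intervals and cover counting error only. Differences between stages cannot be separated from those of library, preparation and depth, and these cannot be told apart here.

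Apln encodes apelin, a secreted peptide that acts on a G protein-coupled receptor of ECs and is known from sprouting and regenerating vessels. Stc1 encodes stanniocalcin-1, a secreted glycoprotein first known from calcium regulation in fish. Cdh13 encodes T-cadherin, a cadherin without a cytoplasmic domain that is held in the membrane by a lipid anchor and binds adiponectin. In marrow, arteries feed capillaries that pass into wide sinusoids, and genes of these vessel types serve as landmarks. Gja4 encodes the arterial gap junction protein connexin 37. Stab1 encodes the scavenger receptor stabilin-1 of sinusoidal ECs. Vwf encodes von Willebrand factor, a clotting protein that ECs store.

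Each gene was read by 1 amplicon. The Apln amplicon belongs to transcript ENSMUST00000039026.7, which lies on the minus strand of chromosome X of the mouse build GRCm38 from 48025146 to 48034853 and has 3 exons. That of Stc1 belongs to ENSMUST00000014957.9 on the plus strand of chromosome 14, from 69029238 to 69041804, with 4 exons. The amplicon of Cdh13 belongs to ENSMUST00000117160.1 on the plus strand of chromosome 8, from 118283733 to 119324921, with 14 exons. Amplification differs between amplicons, so levels were compared between cells and libraries and never between genes.

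ECs were taken as cells with at least 5 molecules of the endothelial genes Pecam1 and Kdr together and none of Ptprc, the gene of the leucocyte antigen CD45. This endothelial gate used none of the 3 genes. It held 2954 of 4038 cells in fetal EC, 378 of 12844 in fetal BM and 1837 of 7939 in adult BM. Gate cells had a median of 75, 83 and 123 panel molecules, respectively. Shares of cells are therefore given after drawing 50 molecules from every cell, which left 2244, 303 and 1757 gate cells and set aside 710, 75 and 80 shallower cells. The adult gate cells also had molecules of marker genes of other marrow cells. Of these gate cells, 79.4% had at least 5 molecules of the summed fibroblast, osteoblast, chondrocyte, mural and reticular marker lists. The shares were 5.72% in fetal EC and 8.20% in fetal BM. Whether all gate cells with such molecules are ECs was not tested. No gene of the mural, osteoblast or fibroblast lists was at 0 in gate cells of any library, whereas 1 of 4 reticular genes was at 0 in each. In adult BM the mural list stood at 1372 per 10000 panel molecules and the osteoblast list at 827, against 20.2 and 10.8 in fetal EC. Pecam1 and Kdr together stood at 1184 in adult BM. Cell indexes shared by libraries numbered 58 between the fetal libraries, 38 between fetal EC and adult BM and 113 between fetal BM and adult BM.

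Apln was present in most fetal gate cells and in few adult ones. In thinned cells its share was 58.4% in fetal EC (56.4 to 60.5), 69.6% in fetal BM (64.1 to 74.8) and 10.6% in adult BM (9.19 to 12.1). Its pooled level was 405 (397 to 413), 623 (598 to 649) and 30.5 (28.8 to 32.3) molecules per 10000 panel molecules in the same order. The adult molecules were concentrated in few cells. At least 5 molecules of Apln were counted in 25.1% of gate cells of fetal EC and 38.4% of those of fetal BM, against 4.03% in adult BM, where the highest cell had 84 molecules and the 18 cells with most Apln held 39.5% of all its molecules.

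Stc1 was present in a smaller range of shares, at 25.8% of thinned gate cells in fetal EC (24.0 to 27.7), 22.8% in fetal BM (18.2 to 27.9) and 16.2% in adult BM (14.5 to 18.0). The intervals of the E18.5 libraries overlapped, and both lay above that of adult BM. Pooled levels were 78.6 (75.3 to 82.1), 53.0 (45.9 to 60.8) and 40.7 (38.7 to 42.7) per 10000 panel molecules. Most cells with Stc1 had few molecules, and cells with at least 5 made up 2.74%, 0.794% and 4.57% of gate cells.

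Cdh13 was widespread at E18.5. It was found in 59.7% of thinned gate cells of fetal EC (57.7 to 61.8), in 75.9% of fetal BM (70.7 to 80.6) and in 30.2% of adult BM (28.0 to 32.4). Its pooled level was 254 (248 to 260), 349 (331 to 368) and 68.6 (66.1 to 71.2) per 10000 panel molecules. For Apln and Cdh13 the sorted fetal EC library thus stood below the gate cells of fetal BM, with intervals that did not overlap, while for Stc1 the pooled levels were in the opposite order.

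**Figure D1:**
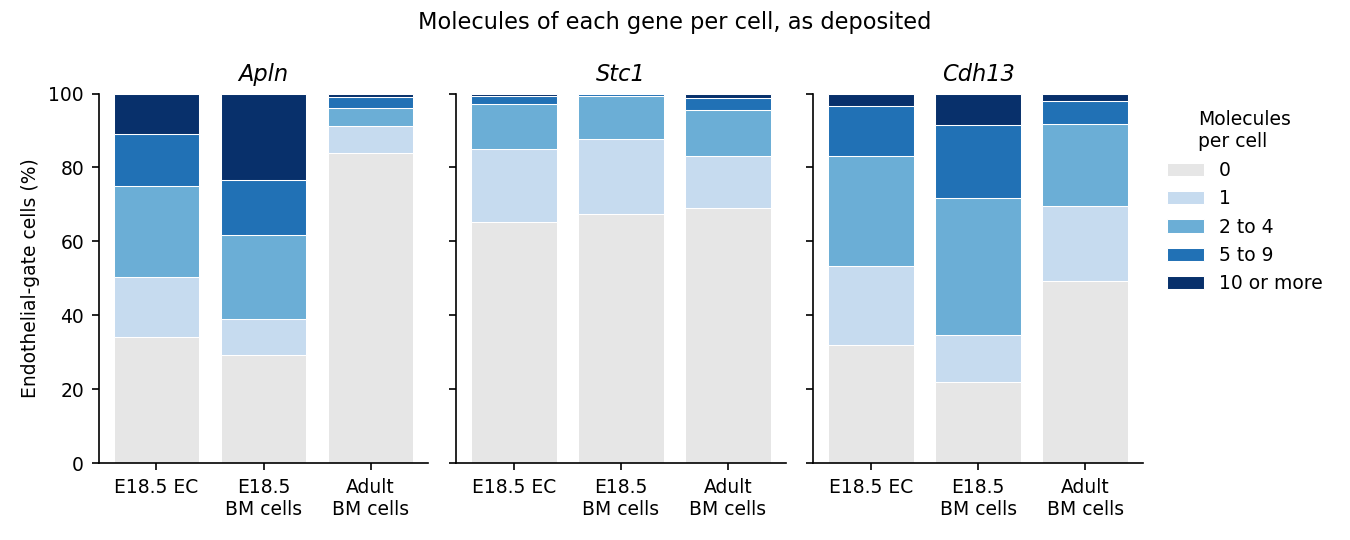
Share of endothelial-gate cells (vertical axis, percent) with 0, 1, 2 to 4, 5 to 9 and 10 or more deposited molecules of each gene in each library. Most of each Apln bar lies above 0 molecules at E18.5 and at 0 (grey) in adult BM, whereas the bars of Stc1 look alike in the 3 libraries. Cells were not thinned here and are deeper in the adult.

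The genes were then set against each other within gate cells, to ask whether they mark the same cells. In fetal EC no pair stood together beyond counting error at 50 molecules per cell. Stc1 was found in 24.9% of thinned cells with Apln and 27.1% of cells without it, a difference of −2.25 percentage points (−5.96 to 1.41). Cdh13 was found in 59.6% of cells with Apln and 59.9% of cells without (difference −0.341, −4.44 to 3.78), and in 59.4% and 59.8% of cells with and without Stc1 (−0.407, −5.08 to 4.18). Each of these intervals includes 0. With 100 molecules drawn per cell the difference of Stc1 by Apln was −10.4 and that of Cdh13 by Stc1 was 7.93 points. Both lay outside the intervals at 50 molecules. In unthinned cells Cdh13 by Stc1 was 7.12 points, with an interval that excludes 0 (3.62 to 10.5). The unthinned intervals of Stc1 by Apln (−4.58 to 2.66) and Cdh13 by Apln (−2.53 to 4.57) include 0. The differences with Stc1 thus depended on the number of molecules per cell, and the part of depth in them was not tested. The genes are named here by symbol and not as markers of 1 vessel type.

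All combinations of the 3 genes occurred. In fetal EC, 12.3% of thinned gate cells had none of them, 39.9% had 1, 39.4% had 2 and 8.42% had all 3. The most frequent combination was Apln with Cdh13 at 26.4% (24.6 to 28.3), followed by Cdh13 alone at 18.0% and Apln alone at 17.5%, whose intervals overlapped. Stc1 alone was found in 4.37%. In fetal BM Apln with Cdh13 reached 42.2% (36.6 to 48.0), and 12.9% of cells had all 3 genes. There, Cdh13 was found in 79.1% of cells with Apln and 68.5% of cells without it, a difference of 10.7 points (0.203 to 21.9). Without thinning it was 7.18 points, with an interval that includes 0 (−1.86 to 17.1), and over the alternatives it lay between 3.24 and 58.9. Cdh13 by Stc1 in fetal BM was 4.92 points in thinned cells, with an interval that includes 0 (−7.16 to 14.7). In unthinned cells it was 10.9 points, with a lower limit of 2.02.

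Adult gate cells mostly had none of the genes or 1 of them. None was found in 50.9% of thinned cells (48.5 to 53.2), 1 in 41.5%, 2 in 7.40% and all 3 in 0.228%, which was 4 of 1757 cells. Cdh13 alone was most frequent at 23.2%, then Stc1 alone at 11.3% and Apln alone at 6.94%. Cells with Apln less often had Stc1 in this library. Stc1 was found in 8.60% of cells with Apln and 17.1% of cells without, a difference of −8.52 points (−12.3 to −3.29), and only 16 thinned cells had both. Differences for the other pairs were −2.47 points for Cdh13 by Apln (−8.86 to 4.73) and −5.01 for Cdh13 by Stc1 (−10.3 to 0.847). In unthinned adult cells they were −6.51 (−12.6 to −0.296) and 5.44 (0.494 to 10.3), so the sign for Cdh13 by Stc1 turned.

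Cells with Apln less often had the arterial gene Gja4 in every library. Gja4 was found in 6.41% of cells with Apln and 28.7% of cells without it in fetal EC, a difference of −22.3 points (−25.5 to −19.2). The shares were 5.21% and 32.6% in fetal BM (−27.4, −37.8 to −17.9) and 5.38% and 39.2% in adult BM (−33.8, −37.3 to −29.0). With cells that had Ptprc admitted, the difference in fetal BM was 1.54 points. Gja4 was not confined to the gate. In fetal BM, 102 cells outside it that were named from the mural list had Gja4 at 50.1 per 10000 (43.4 to 57.5). Gate cells there had 117, and the mural-list cells held 26.1% of the library's Gja4 molecules. The part of mural RNA in the Gja4 differences and groups given here was not tested.

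The sinusoidal gene Stab1 was more frequent in cells with Apln in adult BM and fetal EC. In adult BM 86.0% of cells with Apln had Stab1 against 49.9% of cells without, a difference of 36.1 points (29.9 to 41.0). In fetal EC the shares were 73.1% and 67.3% (5.76, 1.93 to 9.62), and in fetal BM 42.2% and 34.8% (7.40, −4.65 to 18.6), with an interval that includes 0. By pooled level Stab1 was slightly lower in cells with Apln in fetal EC, at 525 against 557 per 10000 (0.942-fold, 0.909 to 0.976). The adult difference was 8.12 points without the gate cells that held markers of other cells, which leaves 379 of 1837 adult gate cells, and 19.4 points where the reticular gene Cxcl12 was not counted among the markers. Cells with Apln less often had Vwf, at 33.3% against 44.4% in fetal EC (−11.04, −15.1 to −6.95), 13.3% against 27.2% in fetal BM (−13.9, −24.5 to −4.31) and 11.8% against 20.1% in adult BM (−8.22, −12.6 to −2.47). With cells that had Ptprc admitted, the differences for Vwf were 2.32 points in fetal EC and 5.53 in fetal BM.

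Stc1 leaned towards cells with Gja4. Gja4 was found in 20.03% of thinned cells with Stc1 and 14.2% of cells without it in fetal EC (5.86, 2.33 to 9.66), and in 49.1% against 33.0% in adult BM (16.1, 9.86 to 22.3). In fetal BM the shares were 20.3% and 11.5%, with an interval that includes 0 (8.75, −0.371 to 20.2). The adult difference was 2.40 points without the gate cells with markers of other cells. Stab1 gave no common direction. It was less frequent in cells with Stc1 in fetal EC (66.1% against 72.3%, difference −6.10, −10.6 to −1.77) and more frequent in fetal BM (52.2% against 36.3%, difference 15.8, 2.64 to 28.6), and in adult BM the shares were 56.8% and 53.1%, with a difference of 3.72 whose interval includes 0 (−2.62 to 9.89). The differences in both fetal libraries were near 0 with RSEC-adjusted molecules, an earlier step of error correction, at 0.0595 and −0.615 points. Vwf was found in 12.6% of adult cells with Stc1 and 20.4% of cells without (−7.82, −11.8 to −3.03), and the intervals of this difference include 0 in both E18.5 libraries.

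Cdh13 was opposed to Stab1. Stab1 was found in 63.0% of cells with Cdh13 and 82.1% of cells without it in fetal EC, a difference of −19.1 points (−22.6 to −15.4), and in 42.6% and 58.5% in adult BM (−15.9, −20.8 to −10.8). In fetal BM the difference was −8.75 (−21.6 to 3.97). Both larger differences depended on the gate: with cells that had Ptprc admitted the difference in fetal EC was 1.28 points, and without the cells that held markers of other cells the adult difference was −2.0 points, or −24.0 where Cxcl12 was not counted among the markers. For Gja4 the difference was 1.08 points in fetal EC (−2.03 to 4.08), 5.19 in fetal BM (−4.57 to 12.3) and 10.3 in adult BM (5.38 to 15.3). Vwf was found in 30.4% of cells with Cdh13 and 49.1% of cells without it in fetal EC (−18.7, −22.8 to −14.6), in 14.8% and 26.0% in fetal BM (−11.2, −23.0 to −1.14), and in 23.2% and 17.4% in adult BM, where the difference had the other sign (5.77, 1.71 to 10.1). The sign for Vwf also turned with cells that had Ptprc admitted in fetal BM (9.37 points) and without the cells that held markers of other cells in adult BM (−4.45 points).

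**Figure D2:**
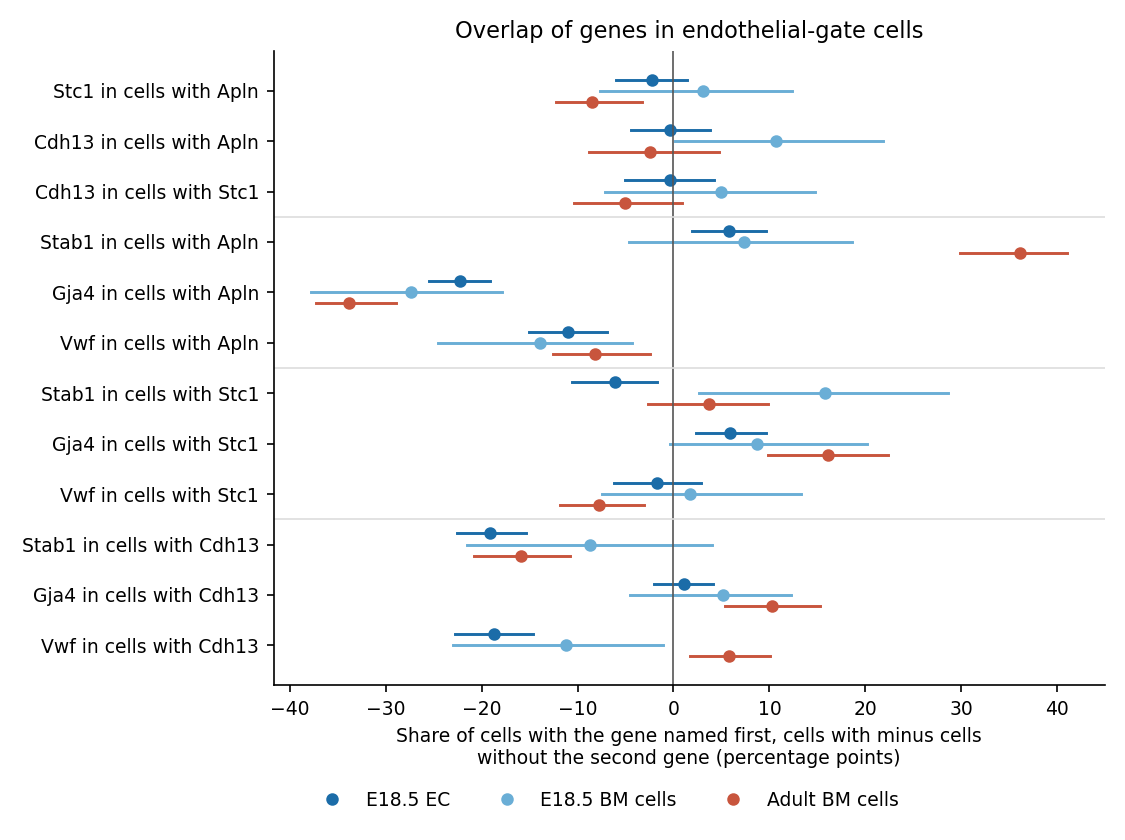
Difference in the share of thinned endothelial-gate cells with a gene, between cells with and cells without a second gene (horizontal axis, percentage points; points are the difference, lines its 95% interval of counting error). The points for Gja4 by Apln lie between −33.8 and −22.3 in the 3 libraries, and those among Apln, Stc1 and Cdh13 lie near 0 in fetal EC.

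Gate cells were split by Gja4 and Stab1 to describe the genes by these landmarks, and the groups are not named as vessel types. In fetal EC, 7.62% of thinned cells had Gja4 alone, 62.6% Stab1 alone, 8.07% both and 21.7% neither. Apln was found in 24.6% of cells with Gja4 alone (18.3 to 31.7) and 23.2% of cells with both (17.3 to 30.0), but in 65.2% of cells with Stab1 alone (62.6 to 67.7) and 63.9% of cells with neither (59.4 to 68.1). Cells without either landmark gene therefore had Apln as often as cells with Stab1 alone, within counting error. Stc1 was highest in cells with Gja4 alone, at 40.4% (32.9 to 48.1), and the other groups lay between 23.9% and 26.1%. Cdh13 was highest in cells with neither gene, at 78.6% (74.7 to 82.2), followed by 66.1% with Gja4 alone, 56.9% with both and 52.7% with Stab1 alone.

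In adult BM Gja4 alone was found in 23.9% of thinned gate cells, Stab1 alone in 42.0%, both in 11.7% and neither in 22.4%. Apln was in 2 of the 420 cells with Gja4 alone, or 0.476% (0.0577 to 1.71), and in 20.6% of cells with Stab1 alone (17.7 to 23.7), with 3.88% for both and 6.11% for neither. Stc1 was found in 22.9% of cells with Gja4 alone (18.9 to 27.2) and 21.4% with both, in 16.0% with Stab1 alone (13.4 to 18.8) and in 6.87% with neither (4.58 to 9.84). Cdh13 was found in 39.3% with Gja4 alone (34.6 to 44.1), 35.4% with neither, 30.1% with both and 22.2% with Stab1 alone (19.3 to 25.4). Cells with neither gene thus stood with the highest groups for Apln and Cdh13 in fetal EC, and in adult BM with the highest for Cdh13 only. Before thinning, the 393 adult cells with neither held 149776 panel molecules. The 738 adult cells with Stab1 alone held 94971, and the 420 with Gja4 alone 122040. The part of RNA of other marrow cells in these groups was not tested. In fetal BM Apln was found in 80.4% of 107 cells with Stab1 alone, 73.5% of 155 cells with neither and 29.6% of 27 cells with Gja4 alone. The order of the other genes was not that of fetal EC. Stc1 was found in 25.9% with Gja4 alone, 27.1% with Stab1 alone, 16.8% with neither and 50% of the 14 cells with both, and Cdh13 in 81.5%, 70.1%, 78.1% and 85.7%.

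**Figure D3:**
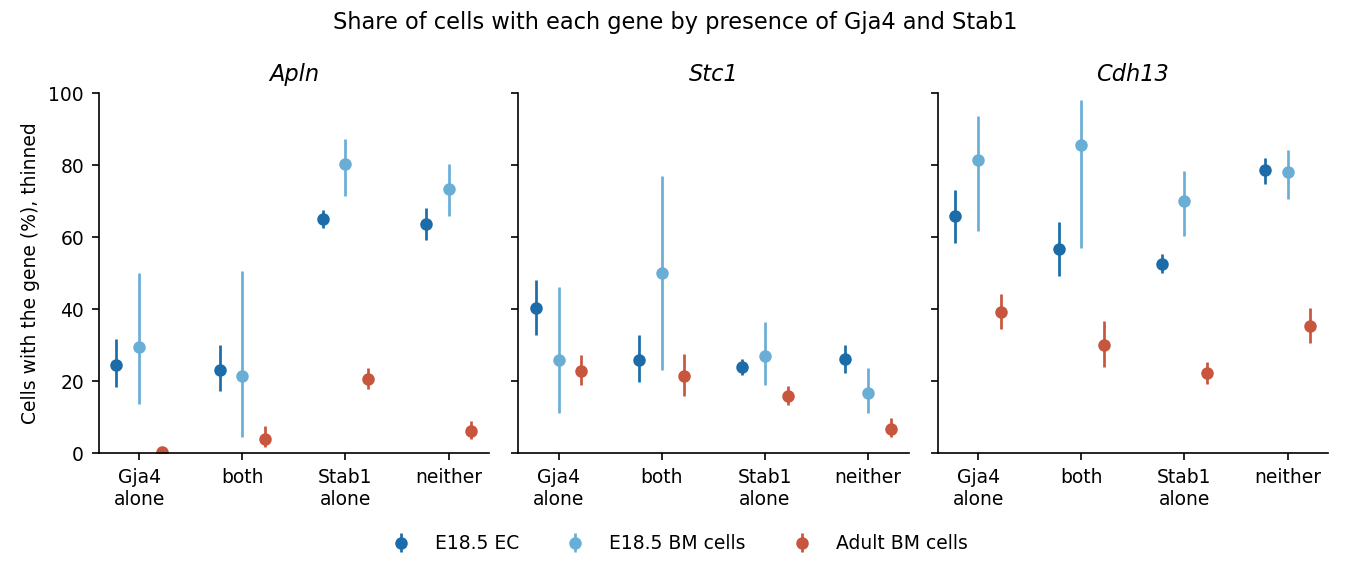
Share of thinned endothelial-gate cells with each gene (vertical axis, percent) by presence of Gja4 and Stab1 in the same cells; points are shares and lines exact binomial 95% intervals. Apln is at 24.6% with Gja4 alone and 65.2% with Stab1 alone in fetal EC, and at 0.476% and 20.6% in adult BM.

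All targets were next compared between gate cells with and without each gene, as folds of the pooled level with the gene itself left out of the total. Targets with at least 50 molecules in gate cells of a library were used, which were 60 in fetal EC and 84 in adult BM, and a fold past 2 in either direction was counted. Cells with a gene were somewhat deeper than cells without it, with medians of 78 against 67 molecules for Apln, 91 against 68 for Stc1 and 87 against 58 for Cdh13 in fetal EC, and 124.5 against 122, 173 against 105 and 143.5 against 107 in adult BM. The part of depth in the folds was not tested, and thinned shares are given where the text turns on a target.

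In fetal EC, 5.0% of targets were past 2-fold higher in cells with Apln and 18.3% past 2-fold lower. Higher were the cyclin genes Ccnd1 (2.21-fold, 2.12 to 2.30) and Ccne1 (2.09-fold, 1.77 to 2.46) and the receptor gene Notch3 (4.83-fold), which had 54 molecules, 37.0% of them in 1 cell, and thinned shares in the other order (0.229% and 0.536%). Ccnd1, which drives entry into the cell cycle, was in 89.0% of thinned cells with Apln and 66.9% of cells without. Top2a, a topoisomerase of dividing cells, was at 1.84-fold, and Nrarp, a Notch target and inhibitor, at 1.64-fold, in 53.5% against 37.5% of thinned cells. Mmp13, a collagenase gene, was at 1.79-fold with 51 molecules. Among the lowest folds were those of Mgp, a matrix protein that inhibits calcification (0.0917), Dkk3 (0.179), Gja4 (0.235) and Wnt9b (0.301). Of 7 measured arterial genes, 1 was past 2-fold higher and 4 lower, with a median fold of 0.360 against 0.991 over all targets. Hey1, a Notch-induced transcription factor, was at 0.355 and the semaphorin gene Sema3g at 0.360. Among niche factors, Cxcl12 was at 0.547 and Kitl at 1.12, and none of the 4 was past 2-fold.

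In adult BM, 20.2% of targets were past 2-fold higher in cells with Apln and 33.3% past 2-fold lower. The matrix protease gene Mmp9 had the highest fold, 16.9, with 37.8% of its molecules in 1 cell and thinned shares of 0.538% and 0.637%. It was followed by Mki67 at 7.59-fold (6.002 to 9.59), Ccne1 at 7.496-fold, of whose molecules 34.1% were in 1 cell, Cdk1 at 7.20-fold (5.95 to 8.72) and Top2a at 6.36-fold (4.99 to 8.11), which are known from dividing cells. Mki67 was in 7.53% of thinned cells with Apln and 1.59% of cells without, Cdk1 in 12.9% and 4.39%, and Ccnd1 in 78.0% and 33.0%. The endothelial receptor gene Kdr was at 2.07-fold, Pecam1 at 1.91-fold, Stab1 at 3.26-fold and the growth factor gene Ptn at 3.20-fold. Of the 7 arterial genes 6 were past 2-fold lower, from Notch3 at 0.246 to Mgp at 0.383, and Nrarp was at 1.75. The lowest folds of all belonged to Acta2 (0.0206), Col10a1, Col22a1, Bglap and Bglap2, genes of mural cells, cartilage and bone. The summed mural list was at 353 per 10000 in cells with Apln and 1518 in cells without, and its part in these folds was not tested.

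For Stc1 in fetal EC, 8.33% of targets were past 2-fold higher and 1.67% past 2-fold lower. The higher ones were Mgp (4.28-fold, with 12.5% of its molecules in 1 cell), Acta2 (2.93), S100a4 (2.58), Sema3g (2.33, 2.14 to 2.54) and Gja4 (2.18, 2.05 to 2.32), and Hey1 followed at 1.94. The only target past 2-fold lower was Notch3 (0.458), whose thinned shares were in the other order (0.691% and 0.240%), and Wnt9b (0.542), Rgs5 (0.617), Spp1 (0.674) and Mki67 (0.704) came next. Of the 7 arterial genes 3 were past 2-fold higher, with a median fold of 1.94 against 0.924 over all targets. In adult BM 10.7% of targets were past 2-fold higher and 29.8% past 2-fold lower. There Dkk2 (3.32, 69 molecules), Gja4 (3.16, 3.03 to 3.30), Mecom (2.60), the elastic fibre gene Fbln5 (2.42) and Sema3g (2.40) led, and 5 of the 7 arterial genes were past 2-fold higher, with a median of 2.13 against 0.954. Fbln5 was in 51.9% of thinned adult cells with Stc1 and 34.6% of cells without, and Sema3g in 58.9% and 46.7%. Apln was at 0.332 and Vwf at 0.484 of their levels in cells without Stc1. The lowest adult folds were those of Col10a1 (0.0503), Bglap (0.0587), Bglap2 (0.0643), Epyc and Col22a1, and the summed osteoblast list was at 393 per 10000 with Stc1 and 1075 without.

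For Cdh13 in fetal EC, 13.3% of targets were past 2-fold higher and 10% past 2-fold lower. Acta2 (4.75), Rgs5 (4.35, with 27.0% of its molecules in 1 cell), Notch3 (3.19), Ccn3 (2.83) and Sema3g (2.53) were highest, and Cxcl12 (2.14) and Ptn (2.46) were past 2-fold among the 4 niche factors. The thinned shares of Cxcl12 were 7.76% and 7.41%, with a difference whose interval includes 0 (−1.96 to 2.53). Acta2, Rgs5 and Notch3 also belong to the mural list and Ccn3 to the fibroblast list. The mural list stood at 23.8 per 10000 in cells with Cdh13 and 8.78 in cells without, and the fibroblast list at 51.2 and 18.7, and their part in the folds was not tested. Gja4 was at 1.999-fold by pooled level although its thinned shares, 16.1% and 15.0%, had a difference whose interval includes 0. Among the lowest were Stab1 (0.420), Wnt2 (0.463) and Fzd5 (0.478). Of the arterial genes 3 of 7 were past 2-fold higher, with a median of 1.999 against 0.911 over all targets.

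In adult BM 21.4% of targets were past 2-fold higher in cells with Cdh13 and 28.6% past 2-fold lower. Prg4, which encodes the joint lubricant lubricin, was at 17.9-fold, with 27.7% of its molecules in 1 cell and thinned shares of 17.4% and 11.6%. Cytl1 (6.19), Ccn3 (5.51), Dkk2 (5.48) and Tagln (4.43), a mural gene, followed. Kitl, the gene of stem cell factor, was at 1.78-fold and in 68.9% of thinned cells with Cdh13 against 45.3% of cells without. Arterial genes past 2-fold higher were Gja4, Sema3g, Hey1 and Fbln5, 4 of 7, and Stab1 was at 0.347. The lowest were Col10a1 (0.01998), Bglap (0.141), Bglap2 (0.151), Mmp13 (0.175) and Sgms2 (0.196). The mural list was at 1869 per 10000 in cells with Cdh13 and 671 in cells without, and the fibroblast list at 93.6 and 33.2. The part of these cells' RNA in the folds was not tested.

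The gate cells of fetal BM gave 50 targets. There 12% of targets were past 2-fold higher in cells with Apln and 32.0% past 2-fold lower, 4.0% and 20% for Stc1, and 18.0% and 28.0% for Cdh13. Ccnd1 was at 3.98-fold in cells with Apln (3.44 to 4.61), in 88.2% of thinned cells against 57.6%. Ccne1 was lower by pooled level, at 0.538-fold (0.390 to 0.745), which is the other direction to fetal EC. Its thinned shares were 8.53% and 15.2%, with a difference whose interval includes 0 (−15.9 to 0.788). The niche factors also differed from fetal EC, with Kitl at 2.23-fold and Cxcl12 at 0.211-fold (0.143 to 0.306) by Apln. Of 6 measured arterial genes 4 were past 2-fold lower by Apln, with a median fold of 0.381 against 0.982 over all targets. By Stc1, 2 were past 2-fold higher, with a median of 1.52 against 0.998. These were Gja4 (2.25, 1.86 to 2.72) and Mgp (3.01), of whose molecules 52.3% were in 1 cell. By Cdh13, 1 was past 2-fold higher and 1 lower, with a median of 1.4 against 0.963. The lower one was Mgp (0.149), with thinned shares of 2.61% and 5.48% and an interval that includes 0 (−10.8 to 1.59). Mgp (0.236) was also among the 4 lower by Apln. The cell with most Mgp had Stc1 but neither Apln nor Cdh13. Cxcl12 (3.38) and Kitl (2.41) were past 2-fold higher by Cdh13. Cxcl12 had 22.2% of its molecules in 1 cell. Its thinned shares were in the other order, 6.96% and 9.59%, with an interval that includes 0 (−11.9 to 3.69). Those of Kitl were 70.0% and 57.5%. The mural genes Acta2 and Rgs5 had 92.8% and 95.4% of their molecules in 1 cell, which had both Apln and Cdh13. Another gate cell, with none of the 3 genes, held 1373 molecules of the cartilage gene Col2a1, or 99.8% of them. Col2a1 thus stood at 1222 per 10000 in cells without Apln and 1736 in cells without Cdh13. The part of this cell in the folds, among them those of Kitl, was not tested. Of the 10 measured genes of the other lists, 3 by Apln, 0 by Stc1 and 3 by Cdh13 were past 2-fold, against 22, 12 and 23 of the 50 targets.

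Likeness in pattern was described by Pearson's r of log2(level per 10000 + 1) across thinned gate cells, which share a library and its depth. The target most like Apln was Ccnd1, with r = 0.323 over 2244 cells of fetal EC and 0.302 over 1757 cells of adult BM. Nrarp (0.168) came next in fetal EC, and Stab1 (0.229) in the adult. Those most like Cdh13 were Igfbp7 (0.195), Pecam1 (0.163) and Kitl (0.160) in fetal EC and Kitl (0.237), Alpl (0.154) and S100a4 (0.150) in adult BM. For Stc1 the highest were Hey1 (0.0858), Gja4 (0.0764) and Sema3g (0.0693) in fetal EC, and Fbln5 (0.137), Gja4 (0.131) and Sema3g (0.0960) were highest in the adult. Values this low in sparse counts were not read further.

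The remaining lists held 12 measured genes in fetal EC and adult BM. Of these, 0 by Apln, 0 by Stc1 and 3 by Cdh13 were past 2-fold in either direction in fetal EC, where 14, 6 and 14 of all 60 targets were. In adult BM 3, 3 and 4 were, against 45, 34 and 42 of 84 targets. In fetal EC the 2 measured sinusoidal and venous genes had a median fold of 0.795 by Apln, 0.952 by Stc1 and 0.547 by Cdh13, where Stab1 was past 2-fold lower. The other 4 measured capillary and sprouting genes had none past 2-fold by any of the 3 genes, and the 2 measured receptors of Wnt ligands, Fzd4 and Fzd6, had none in fetal EC or adult BM. Esm1, a gene of endothelial tip cells, had 0 molecules in gate cells. A limit of 3 molecules stands at 0.113, 0.779 and 0.0742 per 10000 in fetal EC, fetal BM and adult BM. In adult BM the capillary and sprouting list had Kdr past 2-fold higher by Apln, Apln and the matrix gene Ecm1 lower by Stc1 and Ecm1 lower by Cdh13. Among the 4 niche factors, Ptn was past 2-fold higher by Apln and by Cdh13 in adult BM (3.20 and 3.32), and the leptin receptor gene Lepr was lower by Cdh13 (0.443), while none was past 2-fold by Stc1.

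Outside the gate the genes differed in where else they were found. Of all molecules of a gene in its library, gate cells held 96.2% of Apln, 97.0% of Stc1 and 97.0% of Cdh13 in fetal EC. In adult BM they held 86.2%, 94.4% and 31.6%. In fetal BM, where gate cells were 2.94% of cells, they held 78.4% of Apln, 69.0% of Cdh13 and 13.3% of Stc1. Thus Apln was concentrated in gate cells in every library, Cdh13 at E18.5 and Stc1 in fetal EC and the adult. Cells with Ptprc are given for comparison and not as a background free of the genes, since they held 74.4% of Stc1 in fetal BM. After thinning, Apln was in 5.43% of them in fetal EC, 0.965% in fetal BM and 2.20% in adult BM, Stc1 in 1.38%, 2.11% and 0.441% and Cdh13 in 4.37%, 0.706% and 1.20%. Cells with Ptprc could hold at least 5 molecules of Pecam1 and Kdr too. In fetal EC, Apln was at 41.9 per 10000 in those 482 cells (37.7 to 46.4) and 2.11 in the 542 cells with fewer (1.18 to 3.48).

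Cells of fetal EC with 1 to 4 molecules of Pecam1 and Kdr and neither Ptprc nor a marker list, of which there were 31, had Apln at 337 per 10000 (242 to 457). Among the remaining cells without Ptprc, levels of Apln were low in all classes named from marker lists. The highest in a class of at least 40 cells was 4.14 per 10000 in the fibroblast-list cells of fetal BM (3.39 to 5.002), and in the adult it was 0.667 in fibroblast-list cells, 0.552 in mural-list cells, 0.173 in reticular-list cells, 0.147 in chondrocyte-list cells and 0.0590 in osteoblast-list cells. The intervals of the first 2 adult classes overlapped. Stc1 was also low in the adult classes, from 1.45 per 10000 in mural-list cells (0.974 to 2.09) to 0.0109 in chondrocyte-list cells. At E18.5 it was at 9.67 in 44 chondrocyte-list cells (5.99 to 14.8), where 1 cell held 10 of the 21 molecules, and at 5.89 in 1019 fibroblast-list cells (4.99 to 6.91).

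Cdh13 was found well beyond the gate in adult BM. In 255 fibroblast-list cells, which were named from the matrix genes Postn, Aspn and Ccn3, it stood at 226 per 10000 (216 to 236), above the 68.6 of adult gate cells. It was in 53.6% of these cells after thinning (47.2 to 59.9), against 30.2% of gate cells. Mural-list cells had 71.7 per 10000 (68.0 to 75.5), an interval that overlaps that of gate cells, but a lower thinned share of 14.0% (9.80 to 19.2). Osteoblast-list cells had 7.71, reticular-list cells 3.47 and chondrocyte-list cells 0.131. Together, fibroblast-list, osteoblast-list and mural-list cells held 23.2%, 20.8% and 16.3% of all Cdh13 molecules of the library. The same classes were low at E18.5. In fetal BM fibroblast-list cells had 11.5 per 10000 (10.2 to 12.9) and mural-list cells 5.73. There, 285 osteoblast-list cells had 0 molecules, with an upper limit of 0.296 per 10000.

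**Figure D4:**
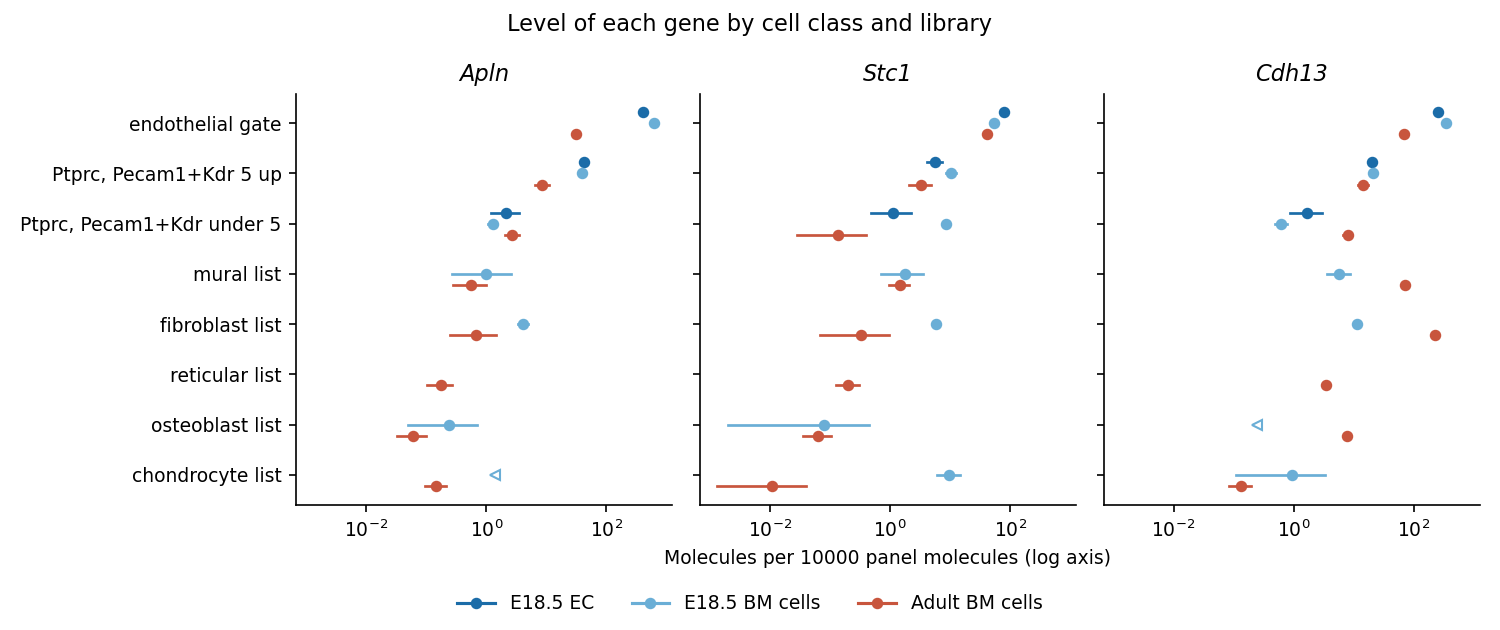
Pooled level of each gene (horizontal log axis, molecules per 10000 panel molecules) by cell class and library, for the gate, 2 classes with Ptprc and 5 marker-list classes where they held at least 40 cells; points are levels, lines exact Poisson 95% intervals, and open triangles the limit of 3 molecules for classes with 0. Apln and Stc1 are highest in the endothelial gate in each library, and Cdh13 in adult BM is highest in fibroblast-list cells, at 226 against 68.6 in the gate.

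In fetal BM most Stc1 was in cells with Ptprc. These held 1137 of its molecules, or 74.4% of the library's, and 1033 of them were in the 9923 cells with Ptprc and fewer than 5 molecules of Pecam1 and Kdr. The level there was 8.54 per 10000 (8.03 to 9.08), below the 53.0 of gate cells, and it came from 279 of the 9923 cells. Of these, 79 cells had at least 5 molecules of Stc1, up to 27, and held 64.2% of the 1033 molecules. In the same class of fetal EC and adult BM, 8 and 3 molecules of Stc1 were found. The 79 cells were set apart after their values had been seen, so their genes are a description. Against cells of the same class without Stc1, 11% of 91 targets were past 2-fold higher in them and 53.8% past 2-fold lower. The highest fold was that of Wnt4 (37.4, 16.8 to 75.0), which was found in 7 of the 79 cells. Notch3 followed at 124 and 8.52 per 10000 and was found in 38 of the 79 cells. Fzd9 (4.48), Mecom (2.68), Hlf (2.55), Pecam1 (2.23) and Top2a (2.01) were also past 2-fold higher. So were Wnt10b (6.87, 0.810 to 26.2, from 2 molecules) and Amer1 (2.08, 0.994 to 3.85, from 10 molecules), with intervals that include 1. Top2a was found in 69.6% of the 79 cells and in 67.5% of the cells without Stc1. Among those past 2-fold lower were Stab1 (0.0765), Acp5 (0.0544) and Lef1 (0.0264). Ptprc stood at 1131 and 437 per 10000 in the same groups, and the median depth was 84 and 90 molecules.

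Fetal and adult gate cells were compared to describe the genes by stage. The share of thinned cells with Apln was 47.8 points higher in fetal EC than in adult BM (45.3 to 50.3), that with Cdh13 29.5 points (26.6 to 32.5) and that with Stc1 9.58 points (7.06 to 12.1). Against fetal BM the same differences were 59.1 points (53.4 to 64.1), 45.7 points (40.2 to 50.7) and 6.55 points (1.83 to 11.9). By pooled level, fetal EC stood above adult BM 13.3-fold for Apln (12.5 to 14.1), 3.70-fold for Cdh13 (3.54 to 3.87) and 1.93-fold for Stc1 (1.81 to 2.06). By the same measure fetal BM stood 20.4-fold (19.1 to 21.9), 5.08-fold (4.76 to 5.43) and 1.302-fold (1.12 to 1.51) above. The comparisons share the adult library. Thinning evened out depth but not the endothelial part of the molecules drawn. Pecam1 and Kdr made up 2980 of 10000 molecules in gate cells of fetal EC and 1184 in adult BM, and the shares were not scaled for this. With cells that had Ptprc admitted, the differences for fetal BM were 18.9 points for Apln and 5.42 for Cdh13. Over the alternatives the ratios for fetal BM lay between 7.23 and 42.6 for Apln and between 1.86 and 7.83 for Cdh13.

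These levels are read against a panel in which many targets differed. Between fetal EC and adult BM, 33.0% of 91 targets were past 2-fold higher at E18.5 and 41.8% past 2-fold higher in the adult, and Apln and Cdh13 were among the former, at ranks 6 and 13 by fold. Stc1, at rank 32, was not past 2-fold. Between fetal BM and adult BM the shares were 31.0% and 39.1% of 87 targets, and the ranks were 6, 13 and 35. Pecam1 and Kdr together made up 2980 of 10000 molecules in gate cells of fetal EC, 2812 in fetal BM and 1184 in adult BM. Scaled to these endothelial genes, fetal EC stood above the adult 5.27-fold for Apln and 1.47-fold for Cdh13, and Stc1 was lower at E18.5, at 0.768-fold. Without the cells with markers of other cells the ratios were 4.40 for Apln and 1.03 for Stc1, and with raw molecules they were 36.5 and 5.09. Apln and Cdh13 stayed above the adult in each of the 13 alternatives, while Stc1 in fetal EC stood above in 12 of 13. For fetal BM the ratio of Stc1 was below 1 in 4 of 13 alternatives, between 0.548 and 0.731, and its share difference was −1.87 points in fetal EC and −4.50 in fetal BM when at least 2 molecules were required in unthinned cells. The stromal marker lists stood at 175, 682 and 3077 per 10000 in gate cells of fetal EC, fetal BM and adult BM, and apart from these omissions their part was not tested.

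**Figure D5:**
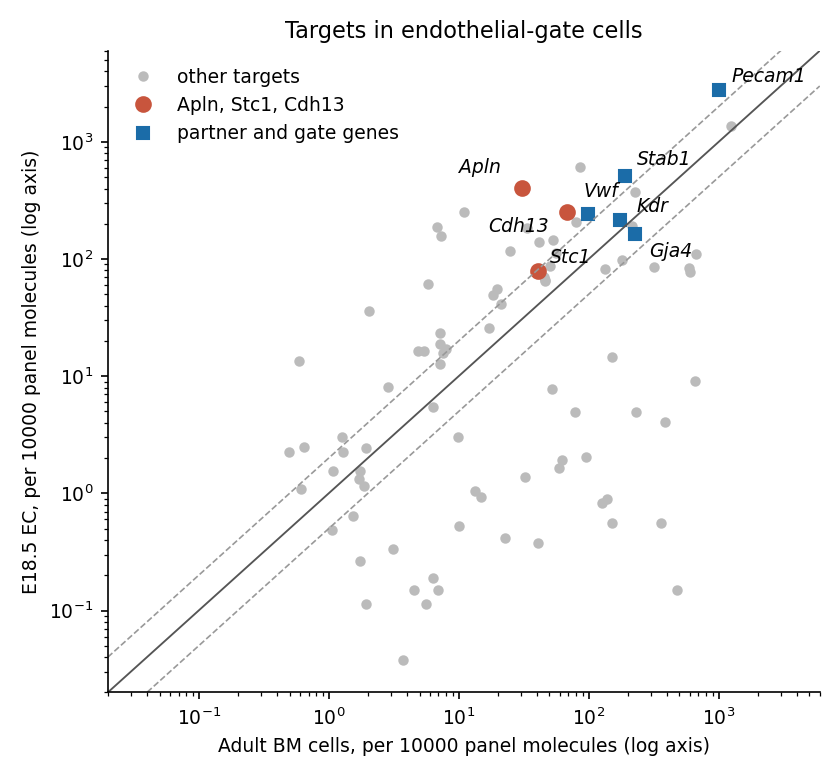
Pooled levels in endothelial-gate cells of fetal EC (vertical log axis) and adult BM (horizontal log axis), in molecules per 10000 panel molecules, for 88 targets; 3 targets at 0 in a library are not drawn. The solid line marks equal levels and dashed lines 2-fold differences; Apln at 405 and 30.5 and Cdh13 at 254 and 68.6 lie above the upper dashed line, and Stc1 at 78.6 and 40.7 lies just under it.

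Stage was also set out within the groups made by Gja4 and Stab1. Shares in these groups were not scaled to endothelial genes either, and adult gate cells with markers of other marrow cells were not taken out. Among thinned cells with Stab1 alone, Apln was found in 65.2% in fetal EC and 20.6% in adult BM, a difference of 44.6 points (40.6 to 48.3). Among cells with neither gene the difference was 57.8 points (52.6 to 62.3), and with Gja4 alone 24.1 points (18.1 to 31.1). Cdh13 was higher in fetal EC by 30.5 points with Stab1 alone (26.4 to 34.4), 26.8 with Gja4 alone (18.0 to 34.9) and 43.3 with neither (37.1 to 49.0). For Stc1 the differences were 7.93 points with Stab1 alone (4.38 to 11.3), 17.5 with Gja4 alone (9.25 to 25.9) and 19.2 with neither (14.5 to 23.8), while its pooled level with Stab1 alone was 67.9 per 10000 in fetal EC and 66.7 in adult BM, a ratio of 1.018 (0.920 to 1.13). In cells with both genes Apln differed by 19.3 points (12.7 to 26.3), Cdh13 by 26.8 (17.0 to 35.9) and Stc1 by 4.61, with an interval that includes 0 (−3.83 to 13.1).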

How the data were processed

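The authors used the BD Targeted Rhapsody Analysis Pipeline, version 1.8 per the file headers. It aligned reads to the panel's amplicons and counted unique molecular identifiers. The deposited values are counts of reads and molecules per cell and amplicon, raw and after 2 steps of error correction (RSEC, then DBEC), with no normalization by the authors. DBEC-adjusted molecules were summed per target. They were 15.6%, 32.1% and 24.8% of raw molecules for Apln, 16.8%, 32.6% and 19.3% for Stc1 and 18.3%, 32.9% and 26.9% for Cdh13 in fetal EC, fetal BM and adult BM, so raw and RSEC-adjusted counts were alternatives. The libraries held 432987, 1837897 and 6304495 molecules.

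Cells needed 20 molecules and 5 targets to be kept. No doublet caller was run, and cells with markers of other cell types were left out in alternatives. Cells outside the gate went to Ptprc cells, then to the marker list with most molecules if it had at least 5. Cells were thinned with random seed 1. Levels have exact Poisson intervals, ratios exact conditional, shares Clopper-Pearson and differences Newcombe intervals. With 1 library per group no test was made. Scripts were tested on simulated data and used Python 3.11.15, numpy 2.4.6, pandas 2.3.3, scipy 1.17.1 and matplotlib 3.10.9. Coordinates are from GENCODE for GRCm38, where 6 of 6 transcripts matched. The genes and lists were chosen with earlier results of these data known. Groups were taken from the sample labels. Other named targets are the 5 highest and 5 lowest by fold and the 3 highest by r for each gene, and members of lists of arterial, sinusoidal, capillary, Wnt receptor and niche genes. Some targets that this rule names are not reported here.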

Additional observations from a re-analysis of the deposited data

Results flagged for a closer look

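The difference in the share of cells with Vwf, between cells with and without Cdh13, had opposite signs by stage. It was −18.7 percentage points in fetal EC (−22.8 to −14.6), −11.2 in fetal BM (−23.0 to −1.14) and 5.77 in adult BM (1.71 to 10.1). The difference between the libraries was not tested, since each stage and preparation has 1 library. The adult value was −4.45 points without gate cells that held markers of other cell types.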

How the results depend on the processing

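Of 624 alternative values of 48 results, 437 moved by less than their error, 170 moved and 17 were counted as changed in direction. A change of direction was counted only for the 33 results whose interval excluded no difference. Sign changes of the other results are therefore not among the 17. For example, Cdh13 by Stc1 in fetal EC kept its sign in 3 of 13 alternatives. The cause was not tested. Ratios are of pooled levels, fetal over adult BM; shares are in percentage points. The omission of shared cell indexes, of the 1% of cells with most of a gene and of markers other than Cxcl12, and all alternatives of the stage difference in shares, were chosen after seeing the data. Without shared cell indexes all 48 results moved by less than their error. No paired analysis was possible because no result comes from a test across samples.

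The ratio of fetal EC to adult BM for Apln, Cdh13 and Stc1 was 36.5, 6.46 and 5.09 with raw and 35.5, 6.10 and 5.43 with RSEC-adjusted molecules, 11.6, 3.25 and 1.73 with no condition on Ptprc, 8.99, 2.91 and 1.45 without the 5% deepest cells, 7.98, 2.51 and 1.45 as a mean of cell shares, 5.27, 1.47 and 0.768 per 1000 Pecam1 and Kdr molecules, 19.9, 3.87 and 2.10 without the 1% of cells with most of the gene, and 6.91, 2.61 and 1.03 without cells with stromal markers other than Cxcl12. For Apln and Cdh13 it was 12.1 and 3.53 with at least 10 molecules of Pecam1 and Kdr and 14.2 and 3.91 with at least 3. Without cells with stromal markers it was 4.40 for Apln and 1.03 for Stc1.

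The ratio of fetal BM to adult BM for Apln, Cdh13 and Stc1 was 39.9, 7.76 and 3.35 with raw and 42.6, 7.83 and 3.58 with RSEC-adjusted molecules, 7.46, 1.86 and 0.639 with no condition on Ptprc, 7.23, 5.72 and 0.731 without cells with stromal markers, 11.3, 3.91 and 0.721 with Cxcl12 exempted, 15.1, 4.44 and 1.07 without the 5% deepest cells, 8.60, 2.14 and 0.548 per 1000 Pecam1 and Kdr molecules, and 12.4, 3.69 and 1.07 as a mean of cell shares. For Apln it was 31.4 without the 1% of cells with most of the gene.

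The difference of fetal EC to adult BM in shares for Apln, Cdh13 and Stc1 was 53.6, 32.8 and 13.4 with raw and 58.9, 34.9 and 21.9 with RSEC-adjusted molecules, and 40.8, 16.4 and −1.87 with at least 2 molecules, unthinned. For Apln and Cdh13 it was 54.3 and 38.1 with 100 molecules and 40.8 and 36.1 without cells with stromal markers, and for Apln it was 41.6 with no condition on Ptprc. For fetal BM, Apln and Cdh13 differed from adult BM by 47.5 and 36.6 with raw and 51.6 and 39.7 with RSEC-adjusted molecules, 51.2 and 37.3 with at least 3 molecules of Pecam1 and Kdr, 18.9 and 5.42 with no condition on Ptprc (−2.06 for Stc1), 50.9 and 54.8 without cells with stromal markers, and 52.3 and 35.02 with at least 2 molecules (−4.50 for Stc1).

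The difference in Gja4 by Apln in fetal EC and adult BM was −10.9 and −17.2 with raw, −13.0 and −14.6 with RSEC-adjusted, −38.7 and −41.7 with 100 molecules, −14.8 and −24.5 with no condition on Ptprc (1.54 in fetal BM), and −19.0 and −13.8 without cells with stromal markers. It was −14.2 in fetal EC with at least 2 molecules, and in adult BM −28.2 with at least 3 molecules of Pecam1 and Kdr and −19.1 with Cxcl12 exempted. Stab1 by Apln was 1.74 with raw molecules in fetal EC, 42.5 with RSEC-adjusted molecules in adult BM, 22.5 and 42.9 with no condition on Ptprc, and in adult BM 8.12 without cells with stromal markers and 19.4 with Cxcl12 exempted. Vwf by Apln was 2.32 in fetal EC and 5.53 in fetal BM with no condition on Ptprc.

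Gja4 by Stc1 was 0.894 and 23.4 with raw molecules, 13.1 and 29.8 with at least 2 molecules, 11.7 in fetal EC with 100 molecules, and in adult BM 22.8 with RSEC-adjusted molecules and 2.40 without cells with stromal markers. Stab1 by Stc1 was 0.0595 in fetal EC and −0.615 in fetal BM with RSEC-adjusted molecules, and 4.33 in fetal EC with no condition on Ptprc. Stab1 by Cdh13 in fetal EC and adult BM was −11.7 and −4.93 with RSEC-adjusted molecules, −9.49 and −5.57 with 100 molecules and 1.28 and −4.56 with no condition on Ptprc. In adult BM it was −7.40 with raw molecules, −30.3 with at least 2 molecules, −2.0 without cells with stromal markers and −24.0 with Cxcl12 exempted. Vwf by Cdh13 was 9.37 in fetal BM with no condition on Ptprc and −4.45 in adult BM without cells with stromal markers.

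Stc1 by Apln in fetal EC was 4.02 with no condition on Ptprc and −10.4 with 100 molecules. Cdh13 by Apln in fetal EC was 15.9 with no condition on Ptprc, −4.59 without the 5% deepest cells, 5.30 with 100 molecules and 4.96 with at least 2, and in adult BM −13.6 with at least 2. Cdh13 by Stc1 in fetal EC and adult BM was 15.5 and 1.76 with no condition on Ptprc, 7.93 and 1.92 with 100 molecules and 15.9 and 11.9 with at least 2. In adult BM it was 4.29 with RSEC-adjusted molecules and −10.4 without the 5% deepest cells.

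At 50 molecules per cell a gene with few molecules is missed in many cells that have it, and the 50 draws are shared by all targets, so shares of different genes are not independent.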
